A study of Mus musculus with 12 samples.

Results

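The antioxidant and glutathione genes described here are 42 genes chosen by name: the regulator NRF2 (Nfe2l2) with its repressor and an adaptor, the enzymes that make and recycle glutathione, the thioredoxin system, peroxiredoxins, glutathione peroxidases, superoxide dismutases with catalase, glutathione transferases, the enzymes of the pentose phosphate pathway in the cytosol, a quinone reductase and an oxidative stress growth inhibitor. Probes were matched to them by the gene name in the files, and the rule that names the genes uses no measured value. All 42 were on the array, with 75 probes, and all 42 passed the filter on dim probes, of 19755 genes tested and 36968 on the array. The study measured messenger RNA in fresh heart tissue of mice on single-colour Agilent arrays, 1 array per sample and 3 samples in each of 4 groups. WT is wild-type heart without infarction, and WT+MI is wild-type heart after myocardial infarction, the death of heart muscle when its blood supply is cut. TG is heart of mice that carry a transgene for CCRR, a long non-coding RNA, without infarction, and TG+MI is heart of the transgenic mice after infarction. The strain is stated, as C57/BL6, only for WT and WT+MI, so strain and transgene cannot be told apart. The sources used here give neither the promoter that drives the transgene nor the age of the mice, the part of the heart that was sampled or the time from infarction to sampling. They also do not say that samples of 1 group are separate animals, so each p-value reflects the spread among the samples alone, and that spread may be technical.

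Cells remove hydrogen peroxide with small thiols. Glutathione is built from cysteine, much of it imported as cystine, and glutathione peroxidases and thioredoxin-fed peroxiredoxins spend it or its partner thiols on peroxides, while reductases restore them with NADPH from the pentose phosphate pathway and other sources. NRF2 is the transcription factor that induces many of these genes: KEAP1 marks it for degradation, oxidised KEAP1 releases it, and it then binds a short DNA motif, the antioxidant response element, as a partner of small MAF proteins. Heart muscle is rich in mitochondria, which carry their own thioredoxin, thioredoxin reductase, peroxiredoxin and superoxide dismutase.

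Promoter windows of 300 bases, from 250 bases before to 50 after the start of transcription, were matched for 37 of the 42 genes in RefSeq tables of the GRCm38.p6 build. The core of the antioxidant response element was searched as TGAC, any 3 bases, then GC, on both strands. Of the 37 genes, 10 held it in at least 1 window (27.0%), beside 14.0% of 27025 genes. The sites are shown because they are the letters that NRF2 is known to read. Each is printed 5′ to 3′ on the strand that carries the core, with the core in capitals. A match describes these letters and is no evidence of binding.

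G6pdx: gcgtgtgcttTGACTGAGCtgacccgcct
Gclm: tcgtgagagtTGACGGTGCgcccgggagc
Nfe2l2: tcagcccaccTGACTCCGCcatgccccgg
Pgd: atttcagagcTGACATTGCactgatcgga
Srxn1: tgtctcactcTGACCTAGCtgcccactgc
Txnrd1: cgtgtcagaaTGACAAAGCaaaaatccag
Gsta3: aactcaggcaTGACATTGCatttttcttc
Mgst1: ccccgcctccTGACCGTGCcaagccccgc
Prdx1: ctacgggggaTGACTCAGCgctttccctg
Sod1: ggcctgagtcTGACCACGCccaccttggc

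The first 6 of these genes are members that rose after infarction in wild-type hearts, as described in the paragraphs that follow, and the last 4 are members that did not pass that test. Of the matched members, 13 rose, and 6 of them held the core (46.2%). Another 13 fell, and 0 of them held it, while 4 of the 11 that did not pass held it (36.4%). On GRCm38.p6 the Gclm site lay at chr3:122245413-122245441, centred 130 bases before the start, the Txnrd1 site at chr10:82859104-82859132, centred 88 bases before it, and the Srxn1 site at chr2:152105542-152105570, centred on base 33 of the transcript. Both Gclm and Txnrd1 were called higher after infarction in each genotype and hold a site before the start, and their 250 bases before the start follow on the strand of the gene, with the core in capitals as its reverse complement.

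Gclm, chr3:122245307-122245556, plus strand: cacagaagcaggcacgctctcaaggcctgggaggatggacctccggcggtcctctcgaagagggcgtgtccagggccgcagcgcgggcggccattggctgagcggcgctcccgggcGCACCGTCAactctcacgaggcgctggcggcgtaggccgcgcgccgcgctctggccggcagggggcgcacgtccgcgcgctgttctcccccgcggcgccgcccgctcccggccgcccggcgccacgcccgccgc
Txnrd1, chr10:82858956-82859205, plus strand: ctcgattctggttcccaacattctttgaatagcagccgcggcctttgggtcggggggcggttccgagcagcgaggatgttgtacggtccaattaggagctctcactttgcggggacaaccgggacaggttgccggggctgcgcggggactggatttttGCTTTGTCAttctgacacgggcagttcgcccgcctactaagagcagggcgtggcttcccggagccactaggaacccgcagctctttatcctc

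The Gclm stretch is 78.4% G and C and the Txnrd1 stretch 59.6%.

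Levels are given as log2 of the background-subtracted Cy3 signal minus the 75th percentile of the array, so that 0 is the level of a probe brighter than 75% of all probe spots. Differences between groups are log2 differences with a standard error from limma, and a gene was called when its Benjamini-Hochberg adjusted p over all 19755 genes was under 0.05. The 75th percentile lay between 198 and 374 units of signal, between 47.0% and 55.2% of probes were well above background per array, no spot was saturated, and the number of arrays limits the precision. All WT and WT+MI arrays were on slide 1 with TG 1 and TG 2, and all TG+MI arrays on slide 2 with TG 3, so WT+MI and TG+MI share no slide. All 10 cardiomyocyte markers were well above background on all arrays. Some arrays stood apart in markers of other tissue: adipocyte markers in TG 1, with a median 6.35 above their mean over all arrays, red blood cell markers in WT 1 with 3.75, and atrial markers, with 3.91 to 6.05 in the TG arrays, 4.40 in WT+MI 1 and 2.45 in TG+MI 2. In bulk tissue, fewer cells of a type and less RNA per cell cannot be told apart.

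**Figure D1:**
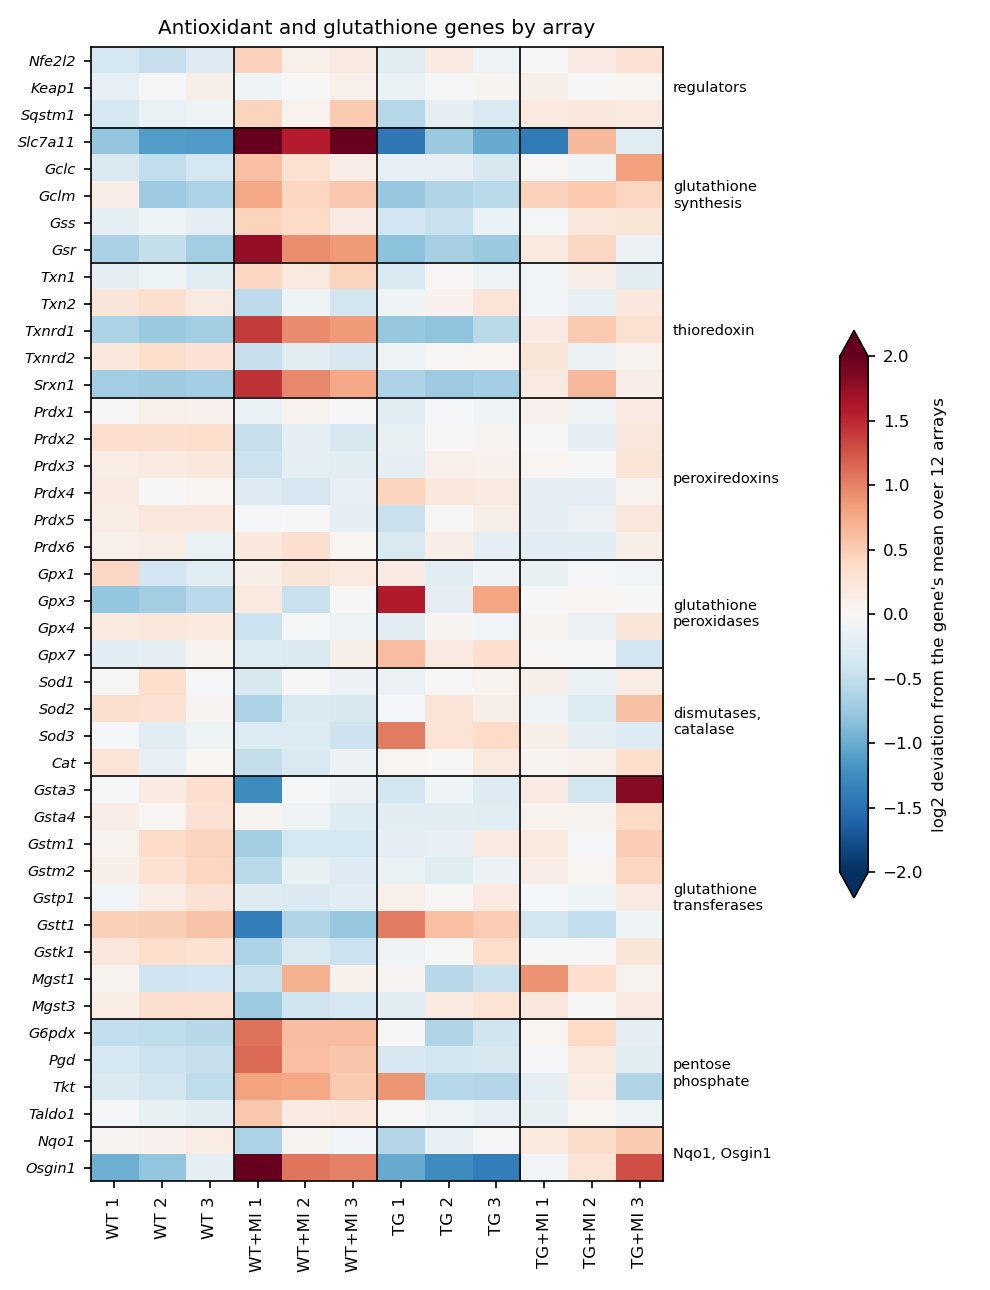
Heat map of the 42 genes (rows, by role) on the 12 arrays (columns, by group), coloured by the log2 deviation of each array from the gene's own mean over the 12 arrays, with colours clipped at -2 and 2. Glutathione synthesis, reductase and pentose phosphate genes are red on the WT+MI arrays, most glutathione transferases are blue there, and Gsta3 on TG+MI 3 and Gpx3 and Sod3 on TG 1 stand out as single arrays.

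In wild-type hearts after infarction, every gene of glutathione synthesis, glutathione recycling and cystine import rose (5 of 5). So did every pentose phosphate gene on the list (4 of 4), on the brightest probe of each gene. Glutathione transferases (6 of 9), peroxiredoxins (3 of 6) and both mitochondrial thioredoxin genes fell. In all, 15 of the 42 rose (35.7%, beside 18.5% of all genes tested) and 13 fell (31%, beside 29.6%), with 14 not passing. Called either way were 28 of the 42, beside 48.1% of all genes. The median difference of the 42 was -0.06, beside -0.15 over all genes tested. The count that fell was near the background, and no test compared the roles. Slc7a11 is the one member that passed the filter on dim probes through WT+MI alone, the group where it is high. Over genes well above background on all 12 arrays, which leaves it out, 14 members rose and 13 fell.

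Slc7a11, the cystine transporter that feeds cysteine to glutathione synthesis, was near background in 3 of the 4 groups. Its probe (mm9 chr3:50176047-50176106) read -6.13, -6.45 and -6.47 in WT, -2.21, -3.77 and -2.83 in WT+MI, -6.77, -6.08 and -6.35 in TG and -6.74, -4.69 and -5.58 in TG+MI. It was well above background on 0 of 3 WT and 0 of 3 TG arrays, on 3 of 3 WT+MI arrays and on 1 of 3 TG+MI arrays. The WT+MI arrays stood above all others, and TG+MI 1 lay with the arrays without infarction. WT+MI was at least 2.61-fold higher than WT, taking in each WT array the lowest signal among probes well above background as the bound, or the probe's own value where that was higher. The adjusted p by limma was 0.000536. The fitted log2 difference of 3.42 takes WT values below the detection limit and is no measure of size: with normexp background correction it was 0.63. All these values are from the brightest Slc7a11 probe. Further probes at mm9 chr3:50169700-50169759 and chr3:50221136-50221195 were well above background on 0 arrays. Another, at chr3:50246786-50246845, was well above background on WT+MI 1 and WT+MI 3 alone.

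Gsr, glutathione reductase, which restores oxidised glutathione with NADPH, read 2.01, 2.18 and 1.96 in WT, 4.42, 3.58 and 3.51 in WT+MI, 1.84, 1.99 and 1.92 in TG and 2.86, 3.07 and 2.54 in TG+MI. The groups with infarction did not overlap those without, and TG+MI lay below WT+MI. In wild-type hearts it rose by 1.79 ± 0.22, which is 3.45-fold (limma, adjusted p = 0.000304). Gclm, the modifier subunit of glutamate-cysteine ligase, read 2.52, 1.67 and 1.76 in WT, 3.16, 2.82 and 2.93 in WT+MI, 1.63, 1.79 and 1.86 in TG and 2.85, 2.92 and 2.82 in TG+MI. All 6 arrays after infarction lay above all 6 without, and WT 1, the array with the high red blood cell markers, stood apart from the other WT arrays; the part of those cells in its level was not tested. Gclm rose by 0.98 ± 0.20 (limma, adjusted p = 0.00278). The catalytic subunit Gclc rose by 0.73 ± 0.21, and Gss, glutathione synthetase, which adds glycine, by 0.49 ± 0.12 (limma, adjusted p = 0.0175 and 0.00919).

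In the thioredoxin system the cytosolic genes rose and the mitochondrial genes fell, on the brightest probe of each. Txnrd1, the cytosolic thioredoxin reductase, read 2.22, 2.11 and 2.16 in WT, 4.26, 3.79 and 3.70 in WT+MI, 2.09, 2.05 and 2.32 in TG and 3.02, 3.37 and 3.16 in TG+MI. Its groups with infarction lay above those without, and WT+MI above TG+MI, with no overlap. It rose by 1.75 ± 0.16, or 3.37-fold (limma, adjusted p = 6.41e-05). Srxn1, sulfiredoxin, which repairs over-oxidised peroxiredoxins, read 1.61, 1.59 and 1.60 in WT, 3.75, 3.27 and 3.05 in WT+MI, 1.69, 1.58 and 1.62 in TG and 2.49, 2.95 and 2.42 in TG+MI, with the same order of groups and no overlap. It rose by 1.76 ± 0.18, or 3.38-fold (limma, adjusted p = 0.000127). Txn1, cytosolic thioredoxin, rose by 0.53 ± 0.13 (limma, adjusted p = 0.00622). Txnrd2, the mitochondrial reductase, read 3.70, 3.84 and 3.78 in WT, 3.04, 3.27 and 3.17 in WT+MI, 3.41, 3.51 and 3.53 in TG and 3.74, 3.37 and 3.57 in TG+MI. Every WT+MI array was below every other array, and TG+MI spanned the range between TG and WT. Txnrd2 fell by 0.62 (SE 0.11), and mitochondrial thioredoxin Txn2 fell by 0.57 (SE 0.15) on its brightest probe (limma, adjusted p = 0.00171 and 0.00875). Of the further Txn2 probes, 1 differed by -0.54 and another, also above background on all 12 arrays, by 0.38, which did not pass.

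All enzymes of the pentose phosphate pathway on the list rose in wild-type hearts, on the brightest probe of each. G6pdx, glucose-6-phosphate dehydrogenase, which makes the first NADPH of the pathway, read 0.40, 0.38 and 0.34 in WT, 1.98, 1.50 and 1.51 in WT+MI, 0.88, 0.29 and 0.50 in TG and 0.93, 1.30 and 0.70 in TG+MI. WT+MI lay above all other arrays, and TG 1 lay within the range of TG+MI. Pgd, 6-phosphogluconate dehydrogenase, which makes the second, read 1.37, 1.29 and 1.26 in WT, 2.86, 2.32 and 2.27 in WT+MI, 1.40, 1.36 and 1.40 in TG and 1.70, 1.92 and 1.52 in TG+MI on its brightest probe. Here no groups with infarction overlapped those without. G6pdx rose by 1.29 ± 0.20 and Pgd by 1.18 ± 0.16 (limma, adjusted p = 0.000694 and 0.000419). Another Pgd probe, well above background on 3 of 3 WT and 1 of 3 WT+MI arrays, was lower in WT+MI, and the mean of its probes gave -0.49 with adjusted p = 0.183. Tkt, transketolase, which links the pathway to glycolysis, read 1.92, 1.85 and 1.72 in WT, 3.02, 2.99 and 2.74 in WT+MI, 3.10, 1.64 and 1.64 in TG and 2.02, 2.36 and 1.61 in TG+MI. TG 1, the array with the high adipocyte markers, was as high as WT+MI and apart from TG 2 and TG 3; the part of those cells was not tested. Tkt rose by 1.08 ± 0.34 and Taldo1, transaldolase, by 0.44 ± 0.12 (limma, adjusted p = 0.0245 and 0.0111). A further Taldo1 probe, well above background on 12 arrays, gave 0.23 when fitted singly and did not pass (limma, adjusted p = 0.264).

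Among the regulators, Nfe2l2 rose by 0.61 ± 0.14 and Sqstm1, the autophagy adaptor p62 that binds KEAP1, by 0.54 ± 0.14 (limma, adjusted p = 0.00509 and 0.0111). Keap1 differed by 0.02 ± 0.11 and did not pass. Osgin1, an NRF2-responsive growth inhibitor, read -1.67, -1.49 and -0.88 in WT, 1.30, 0.36 and 0.31 in WT+MI, -1.70, -1.96 and -2.08 in TG and -0.75, -0.43 and 0.59 in TG+MI. All arrays with infarction were above all arrays without, and TG+MI 3 lay among the WT+MI arrays. It rose by 2.01 ± 0.37, or 4.02-fold (limma, adjusted p = 0.00168). Nqo1, the quinone reductase often used as a readout of NRF2, read 1.45, 1.48 and 1.54 in WT, 0.77, 1.45 and 1.34 in WT+MI, 0.81, 1.23 and 1.36 in TG and 1.59, 1.77 and 1.92 in TG+MI. It was lowest in WT+MI 1 and TG 1, and every TG+MI array lay above every other array. Its difference in wild-type hearts was -0.31 ± 0.19 (limma, adjusted p = 0.208).

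Of the enzymes that act on hydrogen peroxide and superoxide, none rose in wild-type hearts. Prdx2 of the cytosol, Prdx3 of mitochondria and Prdx4 of the endoplasmic reticulum fell by 0.65 (SE 0.12), 0.46 (SE 0.12) and 0.31 (SE 0.11) (limma, adjusted p = 0.00193, 0.00959 and 0.0422). Prdx1, Prdx5 and Prdx6 differed by -0.09, -0.28 and 0.15 and did not pass on the brightest probe of each. Of the further Prdx1 probes, fitted singly, 1 differed by -0.28 and passed, and another by -0.11 and did not (limma, adjusted p = 0.0427 and 0.351). Gpx4, which reduces lipid peroxides in membranes, fell by 0.38 (SE 0.14), while Gpx1, Gpx3 and Gpx7 differed by 0.25, 0.59 and -0.03 and did not pass. Sod2, the manganese superoxide dismutase of mitochondria, fell by 0.64 (SE 0.20) (limma, adjusted p = 0.0402 for Gpx4 and 0.0257 for Sod2). Sod1, the secreted Sod3 and catalase (Cat) differed by -0.26, -0.20 and -0.35 and did not pass.

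Glutathione transferases conjugate glutathione to electrophiles, and 6 of the 9 fell. Gstt1 read 2.51, 2.52 and 2.59 in WT, 0.66, 1.42 and 1.26 in WT+MI, 3.04, 2.62 and 2.54 in TG and 1.65, 1.53 and 1.93 in TG+MI. Every array with infarction lay below every array without, and TG+MI lay above WT+MI. Gstt1 fell by 1.42 (SE 0.20) in wild-type hearts (limma, adjusted p = 0.000536). Gstm1 read 4.41, 4.73 and 4.79 in WT, 3.67, 3.99 and 3.99 in WT+MI, 4.16, 4.19 and 4.53 in TG and 4.54, 4.31 and 4.86 in TG+MI, with the WT+MI arrays below all others. The files place its brightest probe at mm9 chr5:117082490-117082549, although Gstm1 lies on chromosome 3, and the other Gstm1 probe gave differences of the same sign. Gstm genes are similar in sequence, and how far their probes share RNA was not tested. Mgst3, a membrane-bound transferase with peroxidase activity, read 5.28, 5.47 and 5.49 in WT, 4.42, 4.74 and 4.80 in WT+MI, 4.91, 5.33 and 5.42 in TG and 5.37, 5.15 and 5.32 in TG+MI, again with WT+MI below every other array. Gstm1, Mgst3 and Gstk1, the mitochondrial and peroxisomal member, fell by 0.76 (SE 0.17), 0.76 (SE 0.15) and 0.75 (SE 0.14) (limma, adjusted p = 0.00531, 0.00288 and 0.00176). Gstm2 fell by 0.60 (SE 0.14) and Gstp1 by 0.38 (SE 0.12) (limma, adjusted p = 0.00621 and 0.0198). Gsta3, Gsta4 and Mgst1 differed by -0.62, -0.25 and 0.36 and did not pass.

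Neutrophil markers moved with this comparison: 9 of 10 were called higher in WT+MI, with a median difference of 4.91. Their summed level lay between 6.62 and 6.78 in WT, 8.07 and 8.64 in WT+MI, 6.36 and 6.46 in TG, and 7.08 and 7.22 in TG+MI, on the same log2 scale. Of 12 monocyte and macrophage markers, 4 were called higher, and of 10 cardiomyocyte markers 4 were called lower, with medians of 0.42 and -0.42. Of 7 red blood cell markers, 4 were called lower (median -1.51), as were 3 of 8 endothelial (median -0.04) and 2 of 8 fibroblast markers (median -0.10). Among adipocyte markers 1 of 7 was called lower (median -0.31), and among atrial markers 1 of 4 higher (median 1.67). The part of these cells in the differences of the antioxidant genes was not tested. Without single arrays, the members that rose numbered 13 to 16 and those that fell 10 to 13. Gpx4, Prdx4, Sod2, Gstp1, Tkt and Gclc each lost the call without at least 1 of the WT or WT+MI arrays, in every case with the direction kept.

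**Figure D2:**
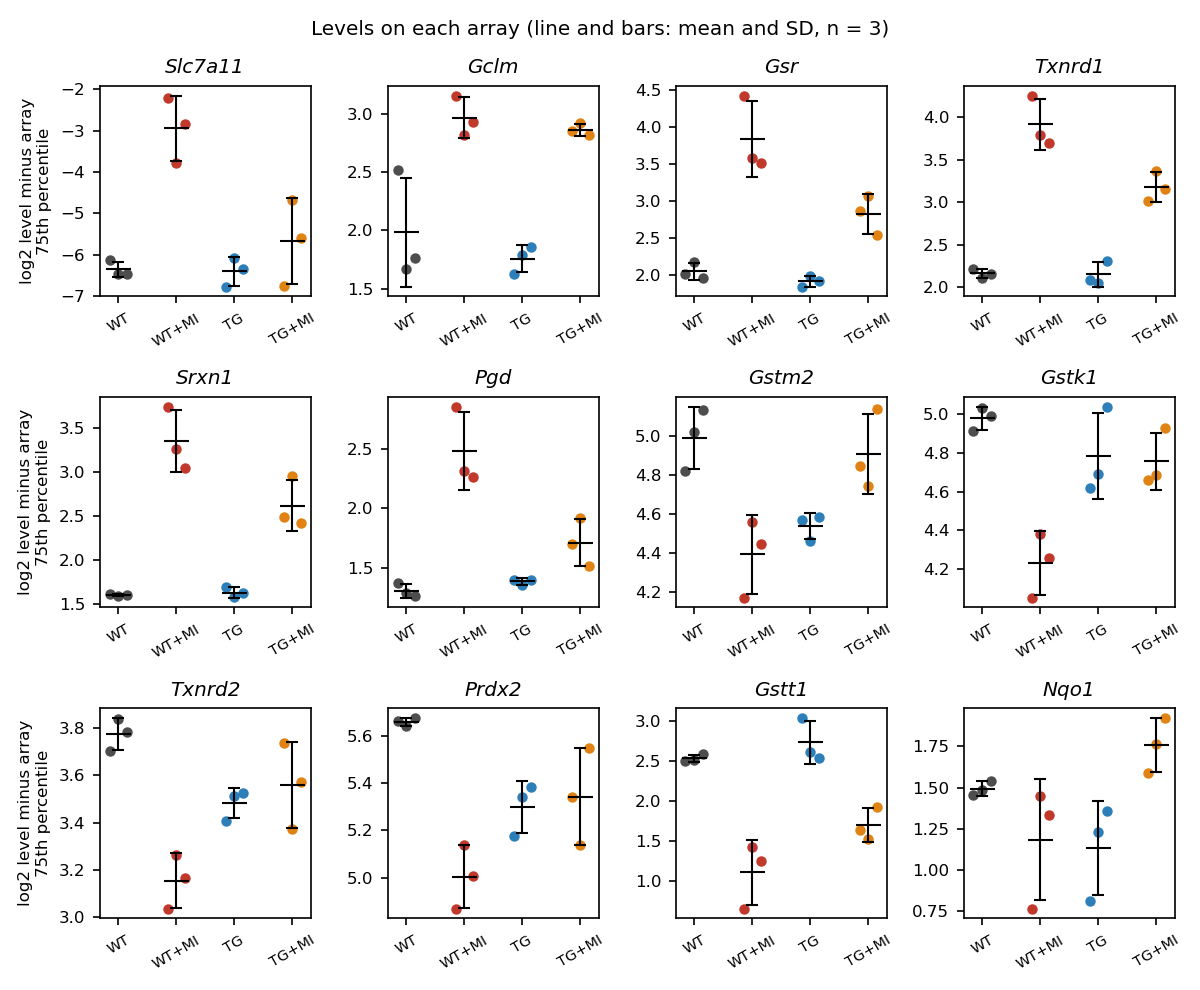
Levels of 12 genes on each array (points; log2 signal minus the 75th percentile of the array), with the mean and SD of each group of 3 as line and bars. In Slc7a11, Gsr, Txnrd1, Srxn1 and Pgd the WT+MI arrays lie above the TG+MI arrays, and in Gstm2, Gstk1 and Txnrd2 below them.

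Without infarction, the transgene came with no called difference in any of the 42 genes (0 of 42 by limma, beside 2.57% of all genes tested, 1.39% higher and 1.18% lower). At an unadjusted p under 0.05, 3 members were higher and 4 lower. The higher ones were Gpx3, the peroxidase secreted into plasma, with 1.40 ± 0.35, Sod3 with 0.70 ± 0.19 and Gpx7 of the endoplasmic reticulum with 0.50 ± 0.17 (limma, adjusted p = 0.0631, 0.085 and 0.166). Gpx3 read 2.38, 2.45 and 2.61 in WT, 3.34, 2.71 and 3.15 in WT+MI, 4.74, 2.98 and 3.94 in TG and 3.16, 3.18 and 3.16 in TG+MI. All TG arrays were above all WT arrays, and TG 1, with its high adipocyte markers, was the highest of all 12. Sod3 read 2.89, 2.70 and 2.83 in WT, 2.66, 2.65 and 2.51 in WT+MI, 3.97, 3.21 and 3.33 in TG and 3.06, 2.74 and 2.65 in TG+MI, and again TG 1 was the highest. With normexp background correction both passed, and Gpx3 also passed without TG 2. The adipocyte markers had a median difference of 3.94 in TG against WT (6 of 7 positive, 0 called). It was 0.56 for fibroblast markers (8 of 8 positive, 1 called) and 8.25 for atrial markers (4 of 4 positive, 2 called). Cardiomyocyte markers had a median of -0.36 (0 of 10 positive, 0 called) and red blood cell markers of -2.29 (0 of 7 positive, 0 called). Of the neutrophil markers 1 of 10 was called lower (median -0.28), and of the monocyte and macrophage markers 1 of 12 higher (median 0.33). The part of these cells was not tested. The members lower at an unadjusted p were Gstm2 with -0.45 ± 0.14, Gsta4 with -0.38 ± 0.12, Prdx2 with -0.36 ± 0.12 and Txnrd2 with -0.29 ± 0.11 (limma, adjusted p between 0.13 and 0.21). The median difference of the 42 genes was -0.12, beside -0.07 over all genes.

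After infarction, TG+MI hearts differed from WT+MI hearts in 10 of the 42 genes (beside 10.5% of all genes tested, called in 1 direction or the other, and 23.8% of the 42), and in each of them the difference ran against the wild-type response. Slc7a11, Gsr, Pgd, Srxn1 and Txnrd1, which had risen in wild-type hearts, were lower in TG+MI. Gstm1, Mgst3, Gstk1, Gstm2 and Txnrd2, which had fallen there, were higher. That makes 5 higher (11.9%, beside 5.97% of all genes tested) and 5 lower (11.9%, beside 4.48%), and both comparisons use the WT+MI arrays, so the opposite signs are not independent of each other. The median difference of the 42 was 0.09, beside 0.08 over all genes.

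Slc7a11 was lower in TG+MI, where 1 of 3 arrays measured it (limma, adjusted p = 0.0233). The gene passed the filter through WT+MI alone, the high group here, so this call adds no support. Its fitted log2 difference was -2.73, and -0.76 with normexp background correction, so its size is not fixed by these arrays. With Slc7a11 left out by the filter for all 12 arrays, 6 members were called higher and 5 lower. Gsr differed by -1.01 ± 0.22, which is 2.02-fold lower (limma, adjusted p = 0.0318). Pgd, Srxn1 and Txnrd1 differed by -0.77 ± 0.16, -0.74 ± 0.18 and -0.73 ± 0.16 (limma, adjusted p = 0.0294, 0.0374 and 0.0303). For these 5 genes every TG+MI array lay below every WT+MI array. They were picked by their calls in this comparison, so that adds no support, and the share over all genes is not given. Gclm, Gclc and Gss, the enzymes of glutathione synthesis itself, differed by -0.10 ± 0.20, -0.09 ± 0.21 and -0.20 ± 0.12 and did not pass. The other pentose phosphate genes, G6pdx, Tkt and Taldo1, had differences of -0.69 ± 0.20, -0.92 ± 0.34 and -0.38 ± 0.12, with adjusted p of 0.0502, 0.097 and 0.0593 by limma. Txn1, with -0.40 ± 0.13, and Osgin1, with -0.86 ± 0.37, did not pass either.

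On the other side, Gstm1 was higher by 0.68 ± 0.17 and Mgst3 by 0.63 ± 0.15 (limma, adjusted p = 0.04 and 0.0366). Gstk1 read 4.91, 5.03 and 4.99 in WT, 4.05, 4.38 and 4.26 in WT+MI, 4.62, 4.69 and 5.04 in TG and 4.66, 4.69 and 4.93 in TG+MI, so that WT+MI was below the 9 other arrays. Gstm2 read 4.82, 5.02 and 5.13 in WT, 4.17, 4.56 and 4.45 in WT+MI, 4.57, 4.46 and 4.59 in TG and 4.84, 4.74 and 5.14 in TG+MI, and TG+MI lay above TG as well as above WT+MI. Gstk1 was higher by 0.53 ± 0.14, Gstm2 by 0.51 ± 0.14 and Txnrd2 by 0.40 ± 0.11 (limma, adjusted p = 0.0413, 0.0464 and 0.0481). All 9 glutathione transferases had a positive difference, with a median of 0.53, and 4 of them passed. The other 5 were Gsta3 with 1.01 ± 0.48, Gsta4 with 0.29 ± 0.12, Gstp1 with 0.27 ± 0.12, Gstt1 with 0.59 ± 0.20 and Mgst1 with 0.32 ± 0.31. Gsta3 rested on 1 array, since it read 1.25, 0.72 and 2.89 in TG+MI and between -0.18 and 1.42 elsewhere. The superoxide dismutases and catalase were positive without passing, with Sod1 at 0.19, Sod2 at 0.49, Sod3 at 0.21 and Cat at 0.47. Peroxiredoxins lay between -0.29 for Prdx6 and 0.38 for Prdx3, glutathione peroxidases between -0.26 for Gpx1 and 0.25 for Gpx4, and none passed on its brightest probe. A further Prdx2 probe, fitted singly, gave 0.43 and passed (limma, adjusted p = 0.0444). Nqo1 was at 0.57 ± 0.19 (limma, adjusted p = 0.073). Nfe2l2, Keap1 and Sqstm1 differed by -0.10, 0.06 and -0.14, all without passing.

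Of the neutrophil markers, 6 of 10 were called lower in TG+MI than in WT+MI, with a median of -2.52, and 3 of 12 monocyte and macrophage markers, with a median of -0.81. None of the 10 cardiomyocyte markers passed (median 0.13). The part of these cells was not tested. The slide and the groups cannot be told apart here except through TG 3. With slide as a block, Gsr, Pgd and Txnrd2, given as examples, differed by -1.01, -0.79 and 0.34, and 0 of 42 passed. At an unadjusted p under 0.05, 1 member was then higher and 5 lower, where the main fit had 14 higher and 10 lower. The calls also rested on single arrays. Without WT+MI 1, TG+MI 1 or TG+MI 3, 0 of 42 passed by limma, with 8, 12 and 8 members higher and 8, 9 and 11 lower at an unadjusted p under 0.05. None was called higher without WT 1, WT 2, WT 3, WT+MI 2 or TG 2, with 4, 2, 3, 4 and 4 called lower. Without WT+MI 3, TG 1 and TG 3 in turn, 3 were called higher and 6, 7 and 4 lower, and without TG+MI 2, 6 higher and 8 lower.

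**Figure D3:**
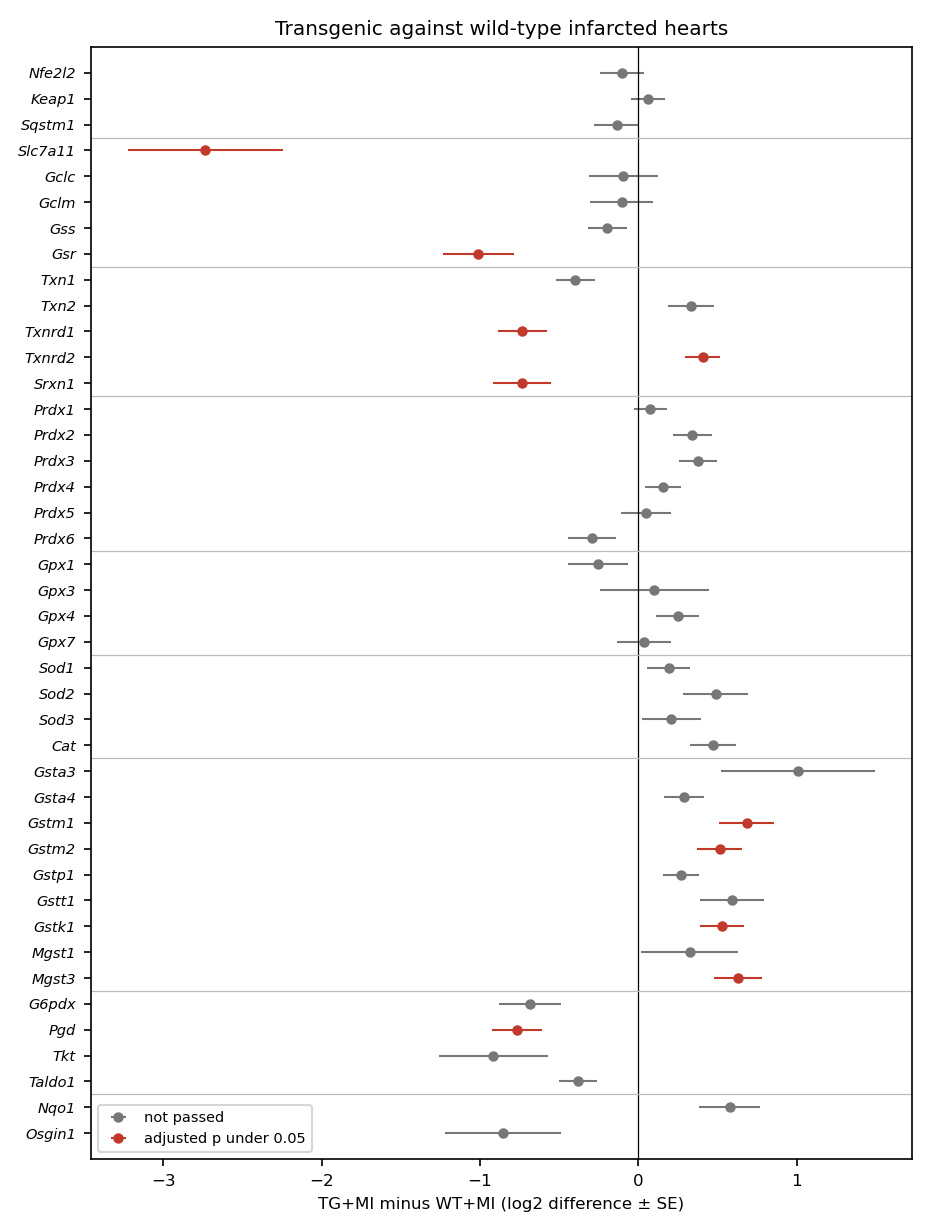
Difference between TG+MI and WT+MI for the 42 genes (log2, points with SE from limma), in order of role, with the 10 genes whose adjusted p is under 0.05 in red. All glutathione transferases lie to the right of 0 and all synthesis and pentose phosphate genes to the left.

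Infarction in transgenic hearts came with 9 called members, beside 8.83% of all genes. Against TG, 7 members were higher in TG+MI (16.7%, beside 5.07% of all genes tested) and 2 lower (4.76%, beside 3.76%). Osgin1 rose by 1.72 ± 0.37, Gclm by 1.11 ± 0.20, Txnrd1 by 1.03 ± 0.16, Srxn1 by 0.99 ± 0.18 and Gsr by 0.91 ± 0.22 (limma, adjusted p = 0.0189, 0.00972, 0.00426, 0.0104 and 0.0324). Sqstm1 and Gss rose by 0.56 ± 0.14 and 0.46 ± 0.12 (limma, adjusted p = 0.0386 and 0.0455). Gstt1 fell by 1.03 (SE 0.20) and Sod3 by 0.69 (SE 0.19) (limma, adjusted p = 0.0141 and 0.0472). Sod3 was no longer called without TG 1. Of the markers, 6 of 10 neutrophil genes were called higher in TG+MI than in TG (median 3.82), 3 of 8 fibroblast genes lower (median -1.07), 2 of 12 monocyte and macrophage genes lower (median -0.37) and 1 of 7 adipocyte genes lower (median -4.78), and the atrial genes had a median of -6.16 with 0 of 4 called. The part of these cells was not tested. Within slide 2, where TG 3 is the only TG array and is assumed to vary like TG+MI, and with slide as a block, 0 of 42 passed, with 5 and 7 higher and 2 and 1 lower at an unadjusted p under 0.05. The higher count was 3 without TG 2 and 4 without WT 3, TG 1, TG 3 or TG+MI 2. The lower count was 0 without TG 1 or TG+MI 2, 3 without TG 2, 2 without TG+MI 1 or TG+MI 3, and 1 without any of the other arrays.

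WT+MI against WT and TG+MI against TG share no array. Of the 15 members that rose in wild-type hearts, 7 rose in transgenic hearts and 14 had a positive difference there, with medians of 1.09 in wild type and 0.47 in transgenic hearts. Of the 13 that fell in wild-type hearts, 1 fell in transgenic hearts, Gstt1, and 7 had a positive difference, with medians of -0.62 and 0.04. Both sets were picked by their wild-type calls, which favours large wild-type medians, so these medians do not compare the size of both responses. The same shares over all genes picked in that way are not given here. The gap between both responses was itself tested, as the transgenic response minus the wild-type response. It passed for 9 members, beside 7.88% of all genes, 7 positive (16.7%, beside 4.87% of all genes tested) and 2 negative (4.76%, beside 3.01%). Marker lists moved with the gap as well. Its median was 0.41 over cardiomyocyte markers (10 of 10 positive, 0 called), 2.64 over red blood cell markers (7 of 7 positive, 0 called), -1.17 over neutrophil markers (1 of 10 called), -1.19 over monocyte and macrophage markers (2 of 12 called), -4.39 over adipocyte markers (0 of 7 called) and -7.79 over atrial markers (1 of 4 called). Their part was not tested.

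The 7 positive gaps were those of Gstm1, Gstm2, Mgst3, Gstk1, Gsta4, Prdx2 and Txnrd2, which are transferases and thiol enzymes. Gstm2 had the lowest adjusted p, with a response of -0.60 in wild-type and 0.37 in transgenic hearts and a gap of 0.97 ± 0.20 (limma, adjusted p = 0.0352). Gsta4, which conjugates products of lipid peroxidation, read 1.14, 1.06 and 1.30 in WT, 1.07, 0.91 and 0.75 in WT+MI, 0.80, 0.78 and 0.78 in TG and 1.09, 1.09 and 1.42 in TG+MI. Its TG arrays were below every WT array and its TG+MI arrays above every TG array. Prdx2 read 5.66, 5.64 and 5.67 in WT, 4.87, 5.14 and 5.01 in WT+MI, 5.18, 5.34 and 5.38 in TG and 5.34, 5.14 and 5.55 in TG+MI. It was highest in WT, and TG+MI overlapped TG. The gaps were 1.03 ± 0.25 for Gstm1, 0.82 ± 0.22 for Mgst3, 0.72 ± 0.19 for Gstk1, 0.67 ± 0.18 for Gsta4, 0.70 ± 0.17 for Prdx2 and 0.70 ± 0.16 for Txnrd2. Of these 7 genes, Gstm2, Gsta4, Prdx2 and Txnrd2 also had lower values in TG than in WT at an unadjusted p, so the gap holds the level before infarction too.

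The 2 negative gaps were those of Pgd, with -0.85 ± 0.22 (limma, adjusted p = 0.0476), and Slc7a11, on the brightest probe of each. A further Pgd probe had a positive gap when probes were fitted singly. That probe passed the filter through WT alone, the group where it is high, so its p-value is left out. The Slc7a11 gap rests on 3 groups at or near background, so its fitted value of -2.68 (limma, adjusted p = 0.0456) is no measure of size. With normexp background correction it was -0.47 and did not pass (limma, adjusted p = 0.159). The gene passed the filter through WT+MI alone, where it is high, so the call of its gap adds no support. In a separate fit over genes well above background on all 12 arrays, 8 gaps were positive and 1 negative. Of the 9 called there, 8 were among the 9 reported. Gsr, Txnrd1 and Srxn1, lower in TG+MI than in WT+MI, had gaps of -0.88 ± 0.32, -0.72 ± 0.22 and -0.77 ± 0.26 that did not pass (limma, adjusted p = 0.094, 0.0646 and 0.0804). Gclm had a response of 0.98 in wild-type and 1.11 in transgenic hearts, and its gap was 0.12 ± 0.28. With slide as a block 0 of 42 gaps passed by limma, with 8 members positive and 5 negative at an unadjusted p under 0.05. No gap passed without WT 1, WT 2, WT 3, WT+MI 1, TG 1 or TG+MI 1, where 9 to 12 members were positive at an unadjusted p under 0.05 and 6 to 10 negative. Without TG 2, 1 negative gap passed, and its gene was not among the 9 reported. Without TG+MI 3, 1 positive gap of the 9 passed, and without WT+MI 2, 1 positive and 1 negative. Without TG 3, 5 positive gaps and 0 negative passed, without WT+MI 3, 5 and 3, and without TG+MI 2, 7 and 5.

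**Figure D4:**
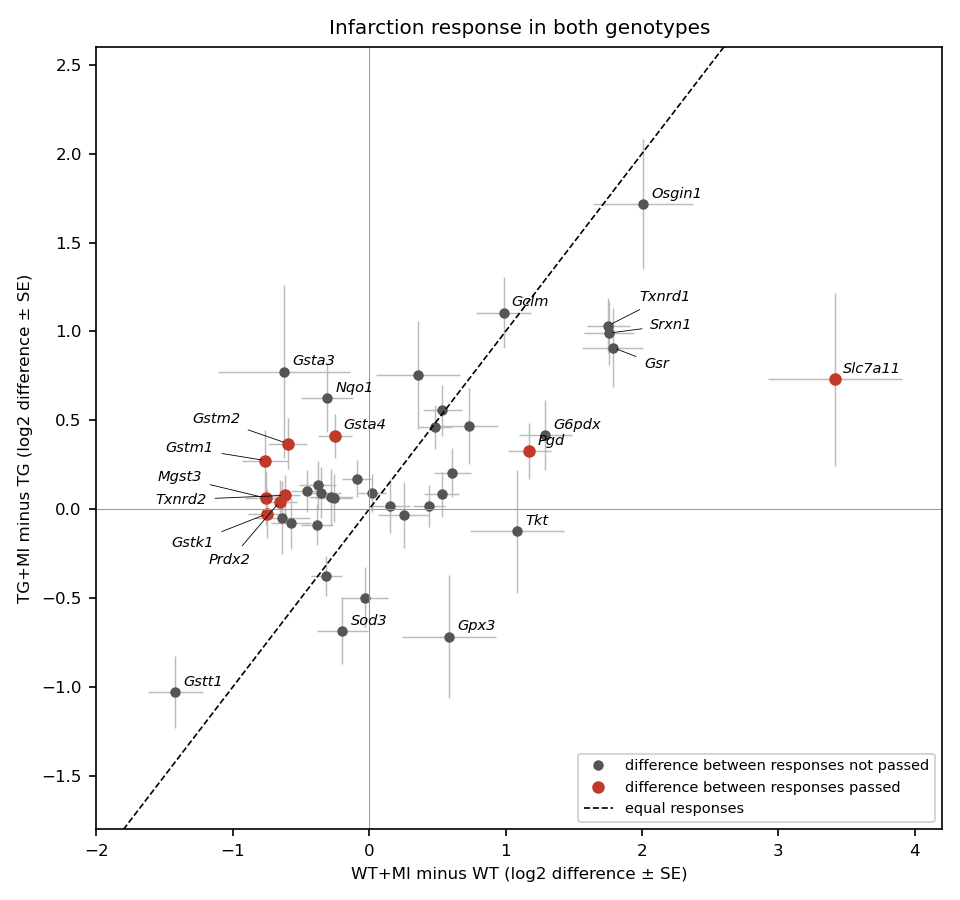
Infarction response of the 42 genes in wild-type hearts (x axis, WT+MI minus WT) and transgenic hearts (y axis, TG+MI minus TG), as log2 differences with SE from limma. The dashed line marks equal responses, and the 9 genes whose gap passed are in red: Slc7a11 and Pgd below the line, 5 transferases, Prdx2 and Txnrd2 above it.

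Genes of the same pathways that are not on the list of 42 were taken from 6 lists, whose counts in wild-type hearts stand beside 18.5% of all genes tested that rose and 29.6% that fell. Of 12 other glutathione transferases tested, 9 fell in wild-type hearts after infarction (75%) and 1 rose (8.33%). The largest falls were those of Gstt2 (-1.53 ± 0.22) and Gstt3 (-1.24 ± 0.20). Gsta2 rose by 1.91 ± 0.23 and was the only one of them called in TG against WT, with -1.48 ± 0.23 (limma, adjusted p = 0.000255 and 0.0107). In TG+MI against WT+MI, 7 of the 12 were higher and 1, Gsta2 (-1.11 ± 0.23), was lower. The 7 were Gstm3, Gstm4, Gstm5, Gstm6, Gstm7, Gstz1 and Gsto2, with differences from 0.55 for Gstm6 to 0.81 for Gsto2. The gap between responses passed for 6 of them, those other than Gsto2, and was between 0.75 for Gstm5 and 1.02 for Gstm6.

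Of 21 partners, regulators and other targets of NRF2, 7 rose (33.3%) and 5 fell (23.8%) in wild-type hearts. Hmox1, heme oxygenase, which breaks down heme and is induced through NRF2 when the repressor BACH1 leaves its enhancers, rose by 5.35 ± 0.21 in wild-type and 3.18 ± 0.21 in transgenic hearts. TG+MI differed from WT+MI by -1.97 ± 0.21, and the gap was -2.18 ± 0.30 (limma, adjusted p = 0.0153 and 0.0149). The small MAF genes Maff and Mafk rose by 2.52 ± 0.38 and 1.50 ± 0.18. Higher in TG+MI than in WT+MI were Btrc (0.49), a ubiquitin ligase subunit that also marks NRF2, Nqo2 (0.48), Ephx1 (0.98), a microsomal epoxide hydrolase, and Cbr1 (0.56), a carbonyl reductase. The Nqo2 gap was 0.69 ± 0.17 and passed.

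Of 15 genes of glutathione supply, breakdown and export, 3 rose (20%) and 7 fell (46.7%). Slc3a2, the heavy chain that partners Slc7a11, rose by 1.28 ± 0.20, while Cth, which makes cysteine from cystathionine, and Dpep1, a dipeptidase, differed by -1.61 ± 0.19 and -1.23 ± 0.23 and fell. In TG+MI against WT+MI, Oplah, which recycles oxoproline, was higher (0.70 ± 0.18) and Abcc1, an exporter of glutathione conjugates, lower (-0.64 ± 0.14), with gaps of 0.98 and -0.75 that passed. Of 15 other pentose phosphate and NADPH genes, 4 rose (26.7%) and 6 fell (40%). Mthfd2, of mitochondrial folate metabolism, rose by 2.15 ± 0.42, and Shpk and Prps2 differed by -1.09 ± 0.16 and -0.93 ± 0.17 and fell. TG+MI against WT+MI was called higher for Me3 (0.52), Nadk2 (0.58) and Prps2 (0.63) and lower for Nadk, the cytosolic NAD kinase (-0.49). The gaps of Me3, Nadk2 and Nadk passed (0.79, 0.84 and -0.71). Nnt, the mitochondrial transhydrogenase that some C57BL/6 substrains lack in functional form, fell in wild-type hearts (-0.69 ± 0.17) and differed by -0.47 ± 0.17 in TG against WT without passing (limma, adjusted p = 0.195).

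Of 20 other peroxidases, glutaredoxins and thiol repair genes, 3 rose (15%) and 7 fell (35%) in wild-type hearts, near the shares of all genes. Msrb2, a mitochondrial methionine sulfoxide reductase, and Sesn1, a sestrin, differed by -1.48 ± 0.22 and -1.25 ± 0.32 and fell, and Sesn2 rose by 0.91 ± 0.27. Msrb2 was higher in TG+MI than in WT+MI (0.81 ± 0.22). Of 13 enzymes that make oxidants, 6 rose (46.2%) and 1 fell (7.69%). The NADPH oxidase subunits of phagocytes Ncf1 and Ncf4 rose by 3.02 ± 0.26 and 2.90 ± 0.43. In TG+MI against WT+MI, 6 were lower and 1 higher. Among the lower ones were Ncf1 (-1.68), Ncf4 (-2.07), Rac2 (-1.83), Cyba (-0.86) and Nos2 (-1.21), and the higher one was Maob (0.82), a monoamine oxidase. Nos2, the inducible nitric oxide synthase, was also lower in TG than in WT (-1.15 ± 0.21; limma, adjusted p = 0.0216). The gap of Ncf1 passed (-2.53). The neutrophil markers moved in the same direction as these subunits in both comparisons, and their part was not tested.

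**Figure D5:**
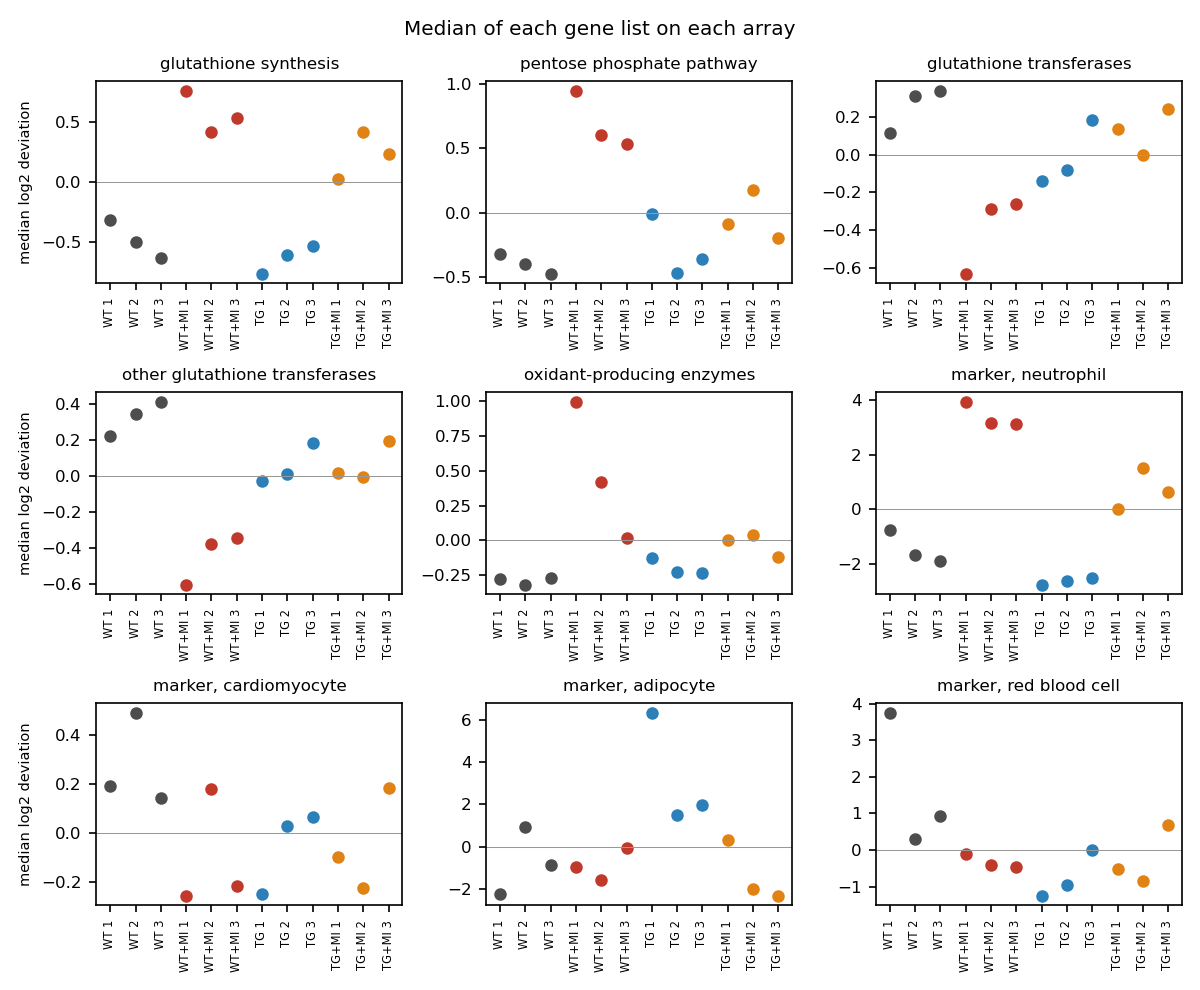
Median log2 deviation of the genes of a list from their own mean over the 12 arrays, for each array (points coloured by group), for 3 roles of the 42 genes, 2 further lists and 4 marker lists. Synthesis and pentose phosphate genes and neutrophil markers are highest on the WT+MI arrays, both transferase lists are lowest there, and TG 1 and WT 1 stand apart in adipocyte and red blood cell markers.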

How the data were processed

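Spot intensity was deposited by the authors as linear, background-subtracted Cy3 signal from Agilent Feature Extraction 12.0.3.1, per the file headers, not normalized between arrays. The authors also deposited a log2 value table of the same arrays, whose normalization is not given in the sources used here and which was used as an alternative. Its column medians lay between 4.21 and 4.22, and each column ranked probes as its own array did. Its direction and scale were read from that match, and its centring stays unknown. Per the labels, RNAiso Plus was used for extraction and a Low Input Quick Amp kit for labelling.

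Each array's log2 intensities were centred on their 75th percentile. Outlier spots were dropped and the remaining spots averaged per probe, which removed 49 of 56605 probes. Names were updated through RefSeq: 33825 probes were renamed from an accession, 490 from a synonym and 9449 already had a current symbol. The names of 12766 others stayed as deposited, and 75 belong to the 42 genes. The brightest probe stood for each gene, and genes were tested if at least 1 group had that probe well above background in all 3 samples. Probe positions are on mm9. Groups were compared in 1 model over 12 arrays with limma 3.58.1 in R 4.3.3, in 5 comparisons, with Benjamini-Hochberg adjustment. On simulated data for WT+MI against WT with 19755 genes, 69 of 100 genes with a log2 change of 1 and 96 of 100 with a change of 2 were recovered, with 12 false calls. Promoter sequences are from RefSeq, GRCm38.p6. Figures were drawn with matplotlib 3.10.9.

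The members, gene lists, markers and tests were chosen with earlier results of these data known. Every member is named. Values on each array are given for members called in either transgene comparison or in the gap between responses, and for the 12 largest called differences of WT+MI against WT; Nqo1, Gpx3 and Sod3 were added after their values were seen. From each further list, up to 3 genes with the largest called difference in WT+MI against WT are named, with any called in those 3 comparisons, and Nnt. A gene that this rule would name is not reported here. Alternatives were background correction, normalization, filter, probe choice, slide and replicate blocks, single slides, pairs of groups and leaving out each array. No set test was run.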

Additional observations from a re-analysis of the deposited data

Results flagged for a closer look

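For 9 of the 42 genes the response to infarction differed between the genotypes by the test of the difference itself, the interaction term of the limma model over 12 arrays. The gap is the transgenic response minus the wild-type response, in log2. It was 0.97 for Gstm2, 1.03 for Gstm1, 0.82 for Mgst3, 0.72 for Gstk1 and 0.67 for Gsta4, all glutathione transferases. For Prdx2 and Txnrd2 it was 0.70 and 0.70. Of these 7 genes, 6 had fallen in wild-type hearts, and the response of Gsta4 there, -0.25, did not pass. Transgenic responses lay between -0.03 for Gstk1 and 0.41 for Gsta4 and none of the 7 passed.

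The gap was -0.85 for Pgd, which rose in wild-type hearts by 1.18 and had a response of 0.33 in transgenic hearts that did not pass. Those values are from its brightest probe. A further Pgd probe, which passed the filter through WT alone, where it is high, had a positive gap when probes were fitted singly. For Slc7a11 the fitted gap was -2.68, but the probe was well above background on 0 of 3 WT, 0 of 3 TG and 1 of 3 TG+MI arrays. It is therefore no measure of size, and the gene passed the filter through WT+MI alone, where it is high. WT+MI was at least 2.61-fold higher than WT, and TG+MI against TG gives no bound. Adjusted p over all genes lay between 0.0352 for Gstm2 and 0.0490 for Gstk1, close to the threshold. The gap mixes the difference between the groups with infarction, which share no slide, and the difference between those without.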

How the results depend on the processing

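No called member reversed under any alternative except Pgd with the mean of all its probes, where WT+MI against WT was -0.49, TG against WT -1.30 and the gap 0.98; the second Pgd probe shows the cause. In WT+MI against WT, called members numbered 11 to 16 higher and 9 to 13 lower over all alternatives. Normexp background correction called 2 higher in TG against WT (Gpx3 and Sod3) and the mean of probes 1 lower (Pgd); it called 10 higher in TG+MI against WT+MI, where quantile normalization and the authors' table called 8 each and the mean of probes 3. In TG+MI against TG, 1 was lower under normexp, quantile normalization, the authors' table, no filter, the mean of probes and 2 groups alone. Higher members there were 4 with no filter and 4 with 2 groups alone, and 0 with the slide block or on slide 2, where 0 were lower. With no filter, the slide block or 2 groups alone, 0 were higher and 0 lower in TG+MI against WT+MI, at unadjusted p under 0.05 11 and 10, 1 and 5, and 9 and 9. In the gap, 0 were higher and 0 lower with no filter or the slide block (10 and 10, and 8 and 5, unadjusted), 3 higher and 0 lower with the mean of probes, and 1 lower under normexp or the strict filter, which drops Slc7a11. Over all genes, calls were 204, 319 and 919 in TG against WT with no filter, the slide block and 2 groups alone (508 as reported), 21, 0 and 1 in TG+MI against WT+MI (2066), 932, 122 and 652 in TG+MI against TG (1744), 0 on slide 2 there, and 52 and 3 in the gap with no filter and the slide block (1556). At unadjusted p under 0.05 the slide block left 1464 genes in TG+MI against WT+MI and slide 2 alone 1666 in TG+MI against TG. The cause was not tested.

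Replicate numbers do not pair the samples: 1 of 18 same-number pairs across groups correlated above 0.1 (range -0.26 to 0.12). With the replicate block, TG against WT called 324 genes, and the gap 5 members higher and 0 lower. Leaving out 1 array at a time gave 7274 to 10467 genes in WT+MI against WT (members 13 to 16 higher, 10 to 13 lower), 138 to 869 in TG against WT (0 to 1, 0 to 0), 0 to 3428 in TG+MI against WT+MI (0 to 6, 0 to 8), 680 to 2280 in TG+MI against TG (3 to 8, 0 to 3) and 51 to 2678 in the gap (0 to 7, 0 to 5). The 2 groups with infarction share no slide, so no single-slide value exists for their difference or for the gap, and 2 groups alone give no gap. With each probe fitted on its own, chosen after seeing the data, 51 of the 56 member calls on the brightest probes passed, and Txnrd2 in TG+MI against WT+MI and the gaps of Gsta4, Gstk1, Mgst3 and Pgd had adjusted p of 0.0522, 0.0521, 0.0534, 0.0517 and 0.0513. Slc7a11 is near background in 3 groups, so its size rests on the background correction.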

Other observations

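Among the 42 genes, Pgd, Nfe2l2 and Txn2 have a further probe that differed from the brightest in at least 1 comparison. They were picked after their values were seen, and other members also had a further probe of opposite sign in some comparison. For Mgst3 in TG+MI against TG, for example, the brightest probe gave 0.06 and another -0.43, and neither passed. The second Pgd probe (mm9 chr4:148529609-148529668) read -1.63, -1.62 and -2.11 in WT, -3.35, -5.36 and -4.82 in WT+MI, -6.21, -6.01 and -5.20 in TG and -4.51, -5.06 and -3.83 in TG+MI. It was well above background on all 3 WT arrays, on WT+MI 1 and on TG+MI 3, and on 0 of 3 TG arrays. WT was at least 4.96-fold higher than TG on it. Fitted over 29870 single probes, an alternative added after the values were seen, it was lower in TG and in WT+MI than in WT. Its gap in that fit was positive. It passed the filter there through WT alone, the group where it is high, so its p-values are left out. Sizes against groups not above background are not given. The brightest Pgd probe (mm9 chr4:148524293-148524352) gave 0.08, 1.18 and -0.85 for the same comparisons. The transcripts that each probe reads were not examined here.

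A further Nfe2l2 probe (mm9 chr2:75529291-75529350) read -1.39, -1.40 and -1.28 in WT, -0.58, -0.58 and -0.85 in WT+MI, 0.53, 1.62 and 0.40 in TG and -1.10, -1.40 and 2.75 in TG+MI. The TG arrays lay above every WT array, and TG+MI 3 was the highest of all 12. In WT+MI against WT it differed by 0.69, with the sign of the brightest probe (0.61). Its difference for TG against WT was 2.21 ± 0.86 and did not pass (limma, adjusted p = 0.209).

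A further Txn2 probe (mm9 chr15:77757053-77757112), well above background on all 12 arrays, differed by 0.38 ± 0.20 in WT+MI against WT and 0.62 ± 0.20 in TG+MI against TG (limma, adjusted p = 0.133 and 0.0794), where the brightest gave -0.57 and -0.08.

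Only further probes that passed the filter on dim probes are counted next. Among those of called members, 12 of 14 had the sign of the brightest probe in WT+MI against WT. The counts were 5 of 6 in TG+MI against WT+MI, 4 of 4 in TG+MI against TG and 5 of 6 in the gap.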
